A study of Homo sapiens with 6 samples.

Results

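The genes of the VEGF system described here are 4 secreted ligands (VEGFA, VEGFB, VEGFC and PGF), the receptor tyrosine kinases FLT1 and KDR, and the co-receptors NRP1 and NRP2. These 8 genes were chosen by symbol, and 6 of them have a row among the 23059 genes in the tables. VEGFC and FLT1 have none and were not analysed here, so nothing is said below on whether these cells express them. HCC-LM3, a human liver cancer line selected for its spread to other organs, was treated with apigenin, a plant flavone, in 3 cultures, or with DMSO as the control in 3 cultures, and total RNA was sequenced. The labels name the samples biological replicates and give no dose or duration. The study's title concerns microvesicles and tumour angiogenesis, and the comparison asks whether the tumour cells' own VEGF genes differ after apigenin.

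VEGFA is the main signal for the growth of new blood vessels, and hypoxia and growth factor signalling are known to raise its transcription. It acts chiefly through KDR (VEGFR2) on endothelial cells, while VEGFB and PGF bind FLT1 (VEGFR1) and VEGFC binds FLT4 (VEGFR3). Neuropilins bind some VEGF forms beside these kinases, and also serve as receptors of class 3 semaphorins together with plexins. Tumour cells are known mainly as a source of the ligands, but some also make the receptors.

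The libraries held 33882145 to 37983636 counts. Levels below are deposited FPKM, reads scaled by 1 length per gene and by the library's counted reads. They allow genes to be compared only as far as those lengths hold. Fold changes come from edgeR's quasi-likelihood test on the deposited counts. P-values were adjusted over 15173 tested genes, and a gene was called at an adjusted p under 0.05. A positive log2 fold change, given with its SE, means more RNA with apigenin. Of the 9 listed genes of hepatocellular carcinoma cells, 8 have a row and their summed level was 1700 to 1930 FPKM in apigenin and 1900 to 1960 FPKM in DMSO libraries, most of it from the keratins KRT8 and KRT18, while APOA2 stayed under 0.1 FPKM. In that list ALB, which encodes serum albumin, was called lower, beside 4.22% of all tested genes. It stood at 23.1 ± 0.508 FPKM with apigenin and 53.9 ± 1.57 FPKM with DMSO (-1.22 ± 0.060, edgeR adjusted p = 3.82e-08, n = 3 each). The other 5 tested were not called, though all 6 log2 fold changes were negative. TTR stood at -0.92 (edgeR adjusted p = 0.0889) and was called in 6 of 20 other settings. EPCAM, too low to test, had 0.124 FPKM with apigenin and 0.111 FPKM with DMSO. Of 12 endothelial markers 9 have a row, with summed levels of 37.4 to 40.2 FPKM in apigenin and 33.6 to 38.9 FPKM in DMSO libraries. In this list CDH5, TEK, VWF, ERG and EMCN were under 0.1 FPKM in every library, and most of the sum came from ESAM and PECAM1. EGFL7 stood at 1.86 FPKM with apigenin and 1.68 FPKM with DMSO, and MMRN2 at 2.32 and 1.98 FPKM. The edgeR p-values set each group difference against the variation between these few cultures, as estimated with information shared across genes.

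Among the 6 VEGF genes with a row, the order of levels was led by NRP1. NRP1 stood at 29.9 ± 2.82 FPKM with apigenin and 31.0 ± 0.347 FPKM with DMSO (SD, n = 3 each), above 86.3% and 87.1% of the tested genes in those groups. VEGFB followed at 26.9 ± 4.10 and 25.2 ± 1.46 FPKM, VEGFA at 17.8 ± 0.838 and 18.8 ± 0.255 FPKM, and KDR at 7.94 ± 0.812 and 9.56 ± 0.383 FPKM, each with apigenin before DMSO. NRP2, at 1.65 ± 0.264 FPKM with apigenin and 2.17 ± 0.0813 FPKM with DMSO, and PGF, at 1.47 ± 0.379 and 1.47 ± 0.133 FPKM, were the lowest, above 30.5% to 35.9% of the tested genes. In DMSO libraries every neighbour in this order was apart, with no overlap between libraries. In apigenin libraries NRP1 overlapped VEGFB, and NRP2 overlapped PGF. The place of NRP2 depends on its length of 16433 nucleotides, against 1911 for PGF. It had 755 to 1375 reads per library, against 69 to 132 for PGF.

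**Figure D1:**
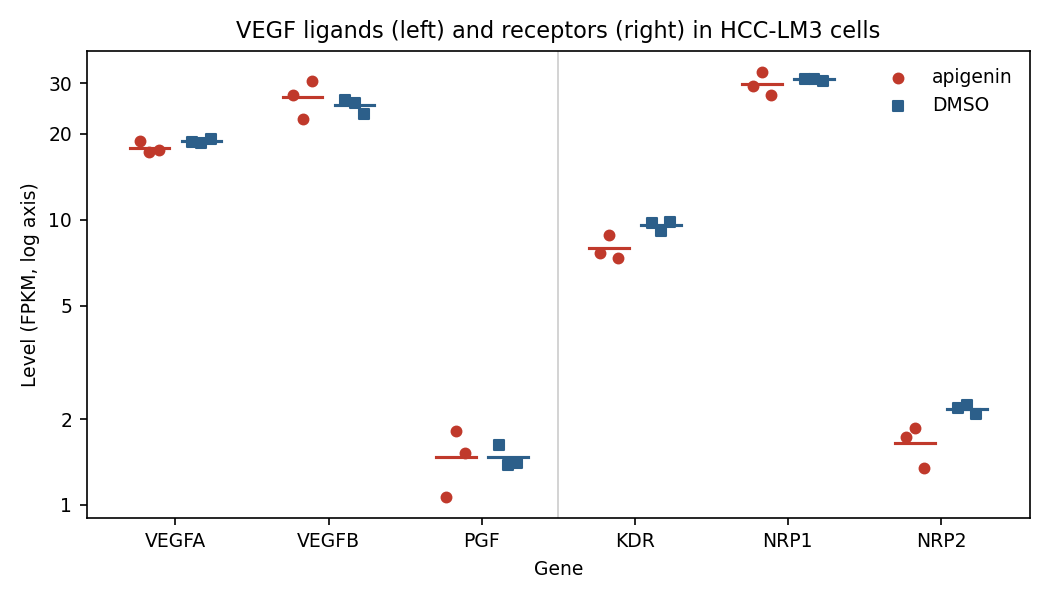
Level of each VEGF ligand and receptor in each library, in FPKM on a log axis, with 3 apigenin libraries (circles) to the left of 3 DMSO libraries (squares), and the group mean as a line. NRP1 and VEGFB are the highest and PGF and NRP2 the lowest, and the groups are apart for KDR and NRP2.

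VEGFD and FLT4, a further ligand and receptor of the family, were near 0. VEGFD, a ligand of FLT4 and KDR, had 1, 4 and 0 reads in the apigenin libraries and 0, 1 and 7 reads in the DMSO libraries. FLT4 itself had 0 reads in each apigenin library and 0, 0 and 1 reads in the DMSO libraries. A count of 0 allows up to 0.0790 to 0.0885 CPM (library-scaled counts, from 3 counts), for counting error alone. Neither gene passed the filter on low counts.

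The sequences of 250 bases before the RefSeq gene start (GRCh38.p14) are shown for the pair of receptors whose groups were apart, NRP2 and KDR, and for VEGFB, the highest ligand, read 5′ to 3′ on the gene's strand. Capitals mark matches, on either strand, to GGGCGG (core of the SP1 box), GCGTG (core of the aryl hydrocarbon receptor element), ACGTG (core of the hypoxia response element) or TGACTCA (AP-1 site).
NRP2, chr2:205682251-205682500, plus strand: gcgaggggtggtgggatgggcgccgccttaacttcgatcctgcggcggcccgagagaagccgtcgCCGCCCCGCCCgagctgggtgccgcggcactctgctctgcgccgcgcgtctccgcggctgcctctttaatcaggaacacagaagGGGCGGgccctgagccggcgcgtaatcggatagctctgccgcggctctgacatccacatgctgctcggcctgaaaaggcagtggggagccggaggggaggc
KDR, chr4:55125596-55125845, minus strand: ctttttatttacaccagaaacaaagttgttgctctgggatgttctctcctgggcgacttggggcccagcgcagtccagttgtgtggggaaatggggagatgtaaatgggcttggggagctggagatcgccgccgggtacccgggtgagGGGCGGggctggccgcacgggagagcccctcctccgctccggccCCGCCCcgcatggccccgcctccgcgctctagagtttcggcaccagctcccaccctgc
VEGFB, chr11:64234334-64234583, plus strand: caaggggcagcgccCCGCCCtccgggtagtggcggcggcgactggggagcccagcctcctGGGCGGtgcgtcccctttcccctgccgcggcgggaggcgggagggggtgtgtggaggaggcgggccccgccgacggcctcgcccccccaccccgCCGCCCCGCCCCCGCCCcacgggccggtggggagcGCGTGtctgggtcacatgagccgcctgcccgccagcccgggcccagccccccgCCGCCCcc
NRP2 held 3 matches to GGGCGG, of which 2 share a base, KDR held 2 and VEGFB 6, some of them also overlapping. At least 1 such match was found in 42.5% of 34943 promoter windows of this length. VEGFB also held 1 match to GCGTG, 61 to 57 bases before the start, a motif found in 32.2% of windows. None of the 3 windows held ACGTG, found in 18.5% of windows, or TGACTCA, found in 4.22%. These are matches of letters, with no binding measured.

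No ligand passed the test. VEGFA (chromosome 6, 43770211 to 43786487) had 18.8, 17.2 and 17.5 FPKM in the apigenin libraries and 18.7, 18.6 and 19.1 FPKM in the DMSO libraries. The groups overlapped, since the first apigenin library lay within the DMSO range. Its log2 fold change was -0.08 ± 0.064 (edgeR adjusted p = 0.508), with a 95% interval of -0.21 to 0.06. That interval spans 0.863-fold to 1.04-fold, so a change of VEGFA mRNA beyond those bounds was not seen in these cultures, and smaller ones could not be told from none. As in all bulk RNA, less RNA per cell cannot be told apart from fewer cells of a kind.

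VEGFB (chromosome 11, 64234584 to 64239264), a ligand known more for metabolic and survival effects than for vessel growth, had 27.4, 22.5 and 30.7 FPKM with apigenin and 26.3, 25.7 and 23.5 FPKM with DMSO. The apigenin libraries lay on both sides of the DMSO libraries. Its log2 fold change was 0.10 ± 0.101 (edgeR adjusted p = 0.604, interval -0.12 to 0.31). It was -0.017 without the third apigenin library, the highest, and 0.22 without the second, the lowest. PGF (chromosome 14, 74941830 to 74955764), placental growth factor, had 1.07, 1.82 and 1.52 FPKM with apigenin, from 69, 132 and 99 reads, and 1.62, 1.38 and 1.4 FPKM with DMSO, from 115, 98 and 93 reads. The lowest and the highest value both belonged to apigenin cultures. Its log2 fold change of 0.01 ± 0.238 (edgeR adjusted p = 0.993) has an interval of -0.51 to 0.52, or 0.704-fold to 1.43-fold, and a change of PGF within those bounds could not be told from none.

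The make-up of the ligand pool also overlapped between the groups. VEGFA made up 39.7, 41.3 and 35.2% of the summed FPKM of VEGFA, VEGFB and PGF with apigenin, and 40.1, 40.7 and 43.3% with DMSO. The means were 38.7 ± 3.17% and 41.4 ± 1.71% (SD, n = 3 each), a difference of -2.65 percentage points (exact two-sided permutation test, p = 0.4, where 3 against 3 cannot go below 0.1). The difference was -0.879 points without apigenin 3 and -1.68 points without DMSO 3. The summed level of these ligands was 46.2 ± 4.20 FPKM with apigenin and 45.4 ± 1.35 FPKM with DMSO (exact two-sided permutation test, n = 3 each, p = 0.8).

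Of the 6 tested VEGF genes, NRP2 alone was called, lower with apigenin. Over all 15173 tested genes 4.22% were called lower and 2.76% higher, 6.99% in all, so 1 call among 6 genes is a small count to read against that background. The median log2 fold change of the 6 was -0.06, against 0.00 over all tested genes. Libraries of the groups did not overlap, with apigenin lower, for 2 of the 6, NRP2 and KDR, against 15.0% of all tested genes.

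NRP2 (chromosome 2, 205682501 to 205798131), a co-receptor known mainly from lymphatic vessels and as a semaphorin receptor, had 1.73, 1.86 and 1.35 FPKM with apigenin, from 964, 1160 and 755 reads. The DMSO libraries had 2.19, 2.24 and 2.08 FPKM, from 1338, 1375 and 1187 reads. Every apigenin library lay below every DMSO library, and the third apigenin library lay furthest down. NRP2 fell by 0.40 ± 0.10 on the log2 scale, to 0.758-fold (edgeR adjusted p = 0.031, interval -0.61 to -0.18). The call was lost without any of the 3 DMSO libraries or without apigenin 1 (edgeR adjusted p of 0.138, 0.134, 0.101 and 0.0898), at log2 fold changes of -0.44 to -0.38. It held without apigenin 2 (-0.49) or apigenin 3 (-0.28), and was lost in 3 limma settings on log2 FPKM (adjusted p of 0.111 to 0.193) and with the trend on gene length described below removed (-0.21).

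KDR (chromosome 4, 55078481 to 55125595), the main signalling receptor of VEGFA, lay just outside the threshold. It had 7.62, 8.86 and 7.33 FPKM with apigenin, and 9.74, 9.12 and 9.81 FPKM with DMSO. The groups were apart, and the second apigenin library lay closest to the DMSO libraries. Its log2 fold change was -0.27 ± 0.078, or 0.831-fold (edgeR adjusted p = 0.0536, interval -0.43 to -0.10). DESeq2, which called 7.37% of its tested genes lower, gave an adjusted p of 0.0264, and edgeR gave 0.0139 without a filter, 0.0498 with a filter of 1 CPM in 3 libraries and 0.0036 without apigenin 2. It was not called without apigenin 3 (edgeR adjusted p = 0.0531), without apigenin 1 or any of the DMSO libraries (0.115 to 0.210), or with limma on log2 FPKM (0.118 to 0.194).

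NRP1 (chromosome 10, 33177493 to 33334667), the co-receptor of VEGFA, had 29.5, 32.9 and 27.3 FPKM with apigenin and 31.2, 31.1 and 30.6 FPKM with DMSO. The DMSO libraries were close together and lay inside the apigenin range. The log2 fold change was -0.05 ± 0.064 (edgeR adjusted p = 0.680, interval -0.19 to 0.09). NRP2 made up 5.55, 5.34 and 4.71% of the summed neuropilin FPKM with apigenin and 6.55, 6.72 and 6.38% with DMSO, lower in every apigenin library by a mean of 1.35 percentage points. This share was chosen after the values were seen and repeats the difference of NRP2, which is also the longer of the pair, so no test is given. As a share of counts, not scaled by length, NRP2 made up a mean of 12.9% with apigenin and 15.9% with DMSO.

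All 6 genes varied more between apigenin than between DMSO cultures. The SD of log2 CPM was 2.10 times as large with apigenin for KDR and 8.98 times for NRP1, with the other 4 between. Over all tested genes 66.1% had the larger SD with apigenin.

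The fold changes of the VEGF genes stood beside a trend on gene length across the whole table. Lengths taken from the deposited FPKM were 1805 nucleotides for VEGFB, 1911 for PGF, 3796 for VEGFA, 5833 for KDR, 6086 for NRP1 and 16433 for NRP2. The median log2 fold change of tested genes was 0.14 in the shortest of 5 length classes (up to 1986 nucleotides), which holds VEGFB and PGF, and -0.13 in the longest (7092 nucleotides or more), which holds NRP2. In that longest class 333 of 3035 genes were called lower and 39 higher, against 15 lower and 133 higher of 3034 in the shortest.

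Library by library, NRP2 lay 0.33, 0.24 and 0.67 log2 units below the DMSO mean in apigenin 1, 2 and 3. The trend over all genes at its length stood at -0.18, -0.06 and -0.36 in those libraries, so NRP2 lay below the trend in each. KDR lay 0.33, 0.12 and 0.36 below the DMSO mean, beside a trend of -0.04, -0.01 and -0.10. With each library's length trend removed, NRP2 stood at -0.21 ± 0.073 and was not called (edgeR adjusted p = 0.0804), while KDR stood at -0.22 ± 0.064 and was called (edgeR adjusted p = 0.0368, with 5.46% of all genes called lower). That call of KDR was in turn lost without apigenin 1 (-0.18, edgeR adjusted p = 0.157) or apigenin 3 (-0.19, edgeR adjusted p = 0.0635). On that scale VEGFA stood at -0.09, VEGFB at -0.02, PGF at -0.09 and NRP1 at 0.01. The trend was read at the 1 length per gene from the deposited FPKM, 16433 nucleotides for NRP2. The length of the NRP2 transcripts in these cells was not measured, and the values with the trend removed depend on it. What part the length trend has in the change of NRP2 was not tested.

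**Figure D2:**
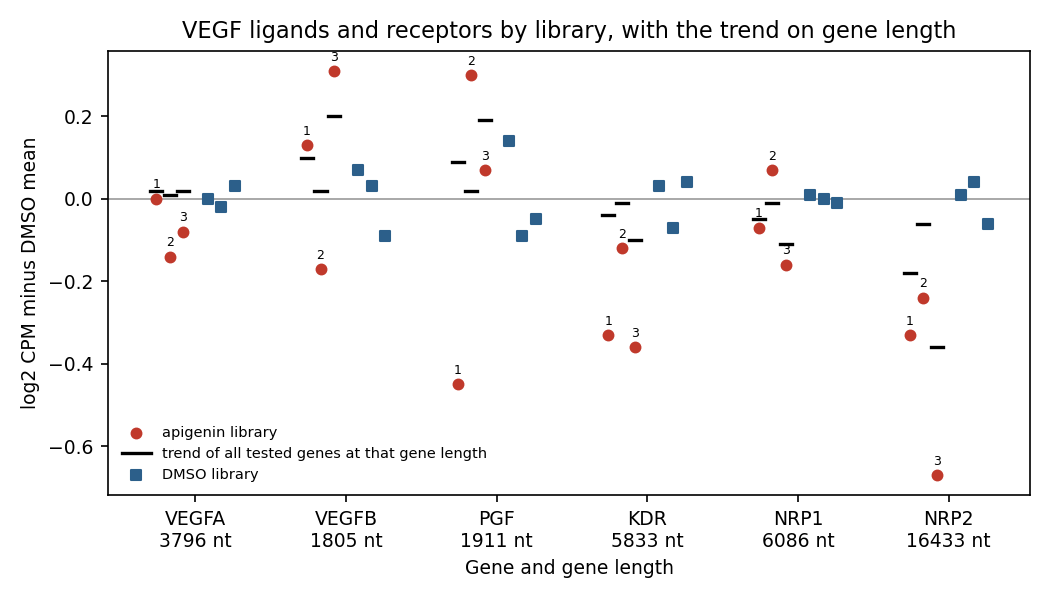
Each library's log2 CPM minus the DMSO mean, for each gene with its length in nucleotides. Numbered circles are the 3 apigenin libraries, squares the DMSO libraries, and black bars the trend of all tested genes at that length in the same apigenin library. NRP2 and KDR lie below their bars in apigenin 1, 2 and 3.

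**Figure D3:**
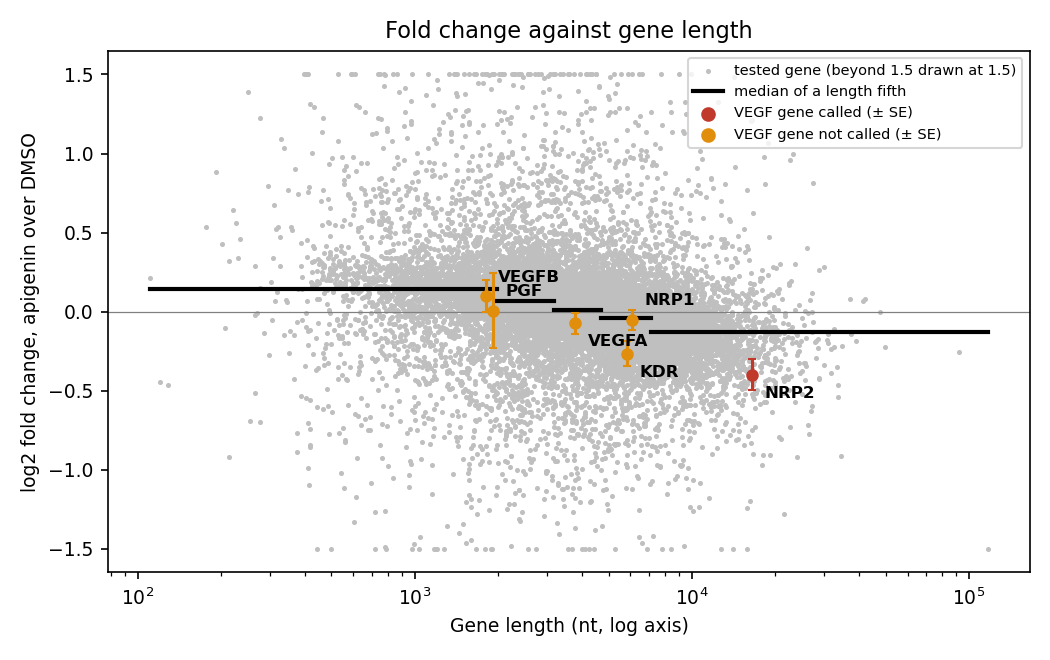
Log2 fold change of each of the 15173 tested genes (grey) against gene length on a log axis, with the median of each of 5 length classes as a line and the 6 VEGF genes with their SE. The class medians run from 0.14 to -0.13, and NRP2, at -0.40, is the longest of the 6.

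The nearest profiles, among 10629 other genes with a mean of at least 5 CPM, were found by the root mean square difference of centred log2 CPM over the 6 libraries. For NRP2, whose values spanned 0.71 log2 units, they were LRP1 (0.013, 14923 nucleotides), ZZEF1 (0.025, 13375 nucleotides) and PCNT (0.030, 11438 nucleotides). For VEGFA, which spanned 0.17 log2 units, they were BAIAP3 (0.011, 5533 nucleotides), CTDSP1 (0.017, 4516 nucleotides) and XXYLT1 (0.018, 12116 nucleotides).

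Semaphorins and plexins work with neuropilins, and 4 of them were called lower. Of 14 listed genes 11 were tested, of which 4 fell and 7 did not pass, with a median log2 fold change of -0.19 and a median length of 7373 nucleotides. Over all tested genes 4.22% were called lower. In the longest length class, which holds that median length and the called PLXNA2, SEMA3A and PLXNA1, 333 of 3035 were. In the next longest class, which holds the called PLXND1, 169 of 3035 were. PLXND1, a semaphorin receptor of vessels, had 37.0, 36.1 and 32.1 FPKM with apigenin and 44.4, 44.8 and 44.7 FPKM with DMSO, and fell by 0.35 ± 0.059 on the log2 scale (edgeR adjusted p = 0.00326). PLXNA2 had 11.5, 11.4 and 8.88 FPKM with apigenin and 14.5, 14.8 and 13.9 FPKM with DMSO, and fell by 0.44 ± 0.081 (edgeR adjusted p = 0.00554). For each of these plexins the groups were apart with apigenin lower, as for 15.0% of all tested genes.

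SEMA3A, a secreted semaphorin that binds NRP1, stood at 2.18 ± 0.284 FPKM with apigenin and 2.79 ± 0.0423 FPKM with DMSO (-0.36 ± 0.098, edgeR adjusted p = 0.0431, n = 3 each). PLXNA1 stood at 16.3 ± 1.19 and 18.9 ± 0.515 FPKM (-0.21 ± 0.061, edgeR adjusted p = 0.0488, n = 3 each). With the length trend removed PLXND1 (-0.27) and PLXNA2 (-0.28) were still called, while SEMA3A (-0.23, edgeR adjusted p = 0.0876) and PLXNA1 (-0.09, edgeR adjusted p = 0.25) were not. Leaving out DMSO 1 or DMSO 2 left 1 of the 4 calls, and leaving out DMSO 3 or apigenin 1 left 2. The limma settings on log2 FPKM left 1, PLXND1, on filtered log2(FPKM + 1), and 0 in the others.

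Genes that regulate VEGFA mRNA were mostly not called. Of 20 listed, 17 were tested, 2 fell and 15 did not pass (median -0.08), beside 4.22% of all tested genes called lower. The 2 were ZFP36 and ZFP36L1, whose proteins bind AU-rich messages, VEGFA among them, and speed their decay. ZFP36 had 58.3, 56.0 and 62.5 FPKM with apigenin and 73.1, 69.9 and 70.6 FPKM with DMSO (-0.27 ± 0.063, edgeR adjusted p = 0.0227). ZFP36L1 stood at 59.5 ± 1.87 FPKM with apigenin and 68.6 ± 0.364 FPKM with DMSO (-0.20 ± 0.053, edgeR adjusted p = 0.0338, n = 3 each). The groups were apart for both with apigenin lower, as for 15.0% of all tested genes. With the length trend removed ZFP36 and ZFP36L1 stood at -0.38 and -0.23, still called, beside 5.46% of all tested genes called lower there. Neither was called without DMSO 1, 2 or 3 or apigenin 1 (edgeR adjusted p of 0.0842 to 0.164), nor in the limma settings (adjusted p of 0.056 to 0.112).

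Of 12 hypoxia-inducible genes, all tested, 2 rose and 10 did not pass (median -0.03), beside 2.76% of all tested genes called higher. In 7 of 20 other settings 1 gene of this list was called lower, DESeq2 and the removed length trend among them. SLC2A1, a glucose transporter, had 71.3, 70.1 and 65.9 FPKM with apigenin and 45.0, 50.1 and 45.6 FPKM with DMSO (0.56 ± 0.059, edgeR adjusted p = 9.72e-05). ADM, the vessel-active peptide adrenomedullin, stood at 76.9 ± 8.97 FPKM with apigenin and 54.9 ± 1.48 FPKM with DMSO (0.49 ± 0.080, edgeR adjusted p = 0.00273, n = 3 each). Both kept their call without any 1 library, and with the length trend removed they stood at 0.53 and 0.36. ADM was not called with limma on log2(FPKM + 0.1) (adjusted p = 0.0674) or on log2(FPKM + 1) without a filter (adjusted p = 0.0837).

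Among genes that process VEGF or hold it in the matrix, 13 of 18 were tested, 2 fell and 11 did not pass (median -0.11), beside 4.22% of all tested genes called lower. With the length trend removed, or without apigenin 2 or apigenin 3, 1 gene of this list was called higher. HSPG2, which encodes perlecan, a heparan sulfate proteoglycan of basement membranes, had 7.42, 7.38 and 5.46 FPKM with apigenin and 9.68, 10.5 and 10.3 FPKM with DMSO (-0.59 ± 0.092, edgeR adjusted p = 0.00206). It is 15109 nucleotides long by the deposited FPKM and stood at -0.41 with the length trend removed, still called. HSPG2 was not called with limma on log2(FPKM + 0.1) (adjusted p = 0.083) or on log2(FPKM + 1) without a filter (adjusted p = 0.112). ADAM10, a membrane protease that sheds receptors, stood at 16.4 ± 1.58 FPKM with apigenin and 19.4 ± 0.614 FPKM with DMSO (-0.24 ± 0.066, edgeR adjusted p = 0.0408, n = 3 each), and at -0.09 with that trend removed, where it was not called. It was also not called without DMSO 1, 2 or 3 or apigenin 1, or in the limma settings (adjusted p of 0.122 to 0.198).

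The list of genes that carry the signal inside the cell below VEGF receptors, such as PLCG1, SRC and the MAP kinases, holds 32. Of these, 31 were tested and 0 were called in the reported edgeR fit (median -0.04). Over all tested genes edgeR called 6.99% in either direction. At an unadjusted p under 0.05 this fit had 4 lower and 4 higher. No share over all genes was computed for that threshold, so these counts are not read as a result about the list. DESeq2 called 2 lower after adjustment, beside 7.37% of its tested genes. Without apigenin 2, edgeR called 6 lower and 3 higher, beside 1546 lower and 1344 higher of all 15513 genes tested there. Among other edgeR settings, 1 was called lower without a filter, beside 1096 of 23059 genes. With the length trend removed 1 was called higher, beside 685 of 15173, and without apigenin 3 also 1, beside 575 of 15580.

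**Figure D4:**
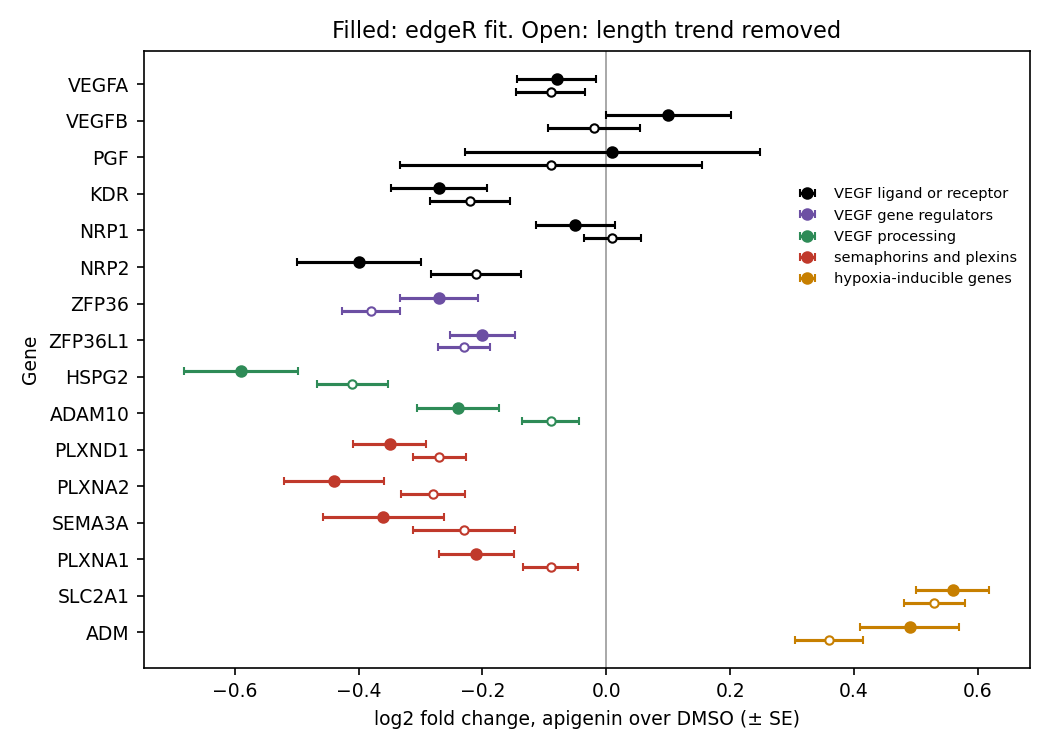
Log2 fold change, apigenin over DMSO, with its SE, for the 6 VEGF genes and the called genes of the pathway lists. Filled points are the edgeR fit and open points the fit with the length trend removed. SLC2A1 and ADM lie above 0 in both fits, and the plexins below 0 in both.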

How the data were processed

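Per the labels' protocols, RNA was isolated from the HCC-LM3 cultures with TRIzol, and a VAHTS Universal V6 kit was used to prepare the libraries. The submitters' processing notes name fastp, HISAT2, HTSeq and the GRCh38 (hg38) build. The sources used here give neither versions nor the use of strand, and GENCODE 29 places an antisense gene with no row of its own over VEGFA, KDR, NRP1, NRP2 and ADAM10 and a long noncoding gene on the opposite strand over SLC2A1, while HSPG2 overlaps LDLRAD2, so such reads could not be told apart. The authors deposited whole-number counts per gene, not normalized, and FPKM. The deposited FPKM match counts scaled by 1 length per gene and by the library's sum in 100% of genes, within a relative tolerance of 0.0001, which gave the gene lengths. Samples were grouped by title, 3 apigenin and 3 DMSO.

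Counts were fitted with edgeR 4.0.16 in R 4.3.3 (TMM factors, default filter on low counts, quasi-likelihood test, Benjamini-Hochberg adjustment at 0.05 over 15173 genes), and the script was first tested on simulated counts. The SE is the log2 fold change over the root of the F statistic, and 95% intervals use its t quantile. Alternatives were DESeq2 1.42.0, other scaling factors and filters, the replicate number as a block, limma 3.58.1 on log2(FPKM + 1) and log2(FPKM + 0.1) with 0.5 FPKM in 3 libraries or no filter, each library left out, and each library's lowess trend (span 0.3) on log2 length removed as an offset. Removal of that trend together with leaving out an apigenin library was added after seeing the data. Fold changes on log2(FPKM + pseudocount) understate those of low genes. Named are the VEGF genes, VEGFD, FLT4, up to 4 called genes of each pathway list, and the 3 nearest profiles of VEGFA and of each called VEGF gene. Members and lists were chosen with earlier results of these data known. Positions and promoter sequences are from RefSeq (GRCh38.p14). Promoters were matched for 4 of the 6 analysed genes, VEGFB, PGF, KDR and NRP2. The promoter sequences at hand held none for VEGFA or NRP1, so those 2 were not searched. No library was a copy of another, since chi-square over degrees of freedom ranged over 8.81 to 27.5 for apigenin pairs and 4.35 to 5.15 for DMSO pairs.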

Additional observations from a re-analysis of the deposited data

How the results depend on the processing

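Over 20 other settings VEGFA kept its sign and was never called, with log2 fold changes of -0.13 to -0.04. NRP2 kept its direction in all 20 and its call in 9, and KDR kept its direction in all 20 and passed in 6. The count of VEGF genes called higher was 0 in all 20, and 0 at an unadjusted p under 0.05 in the edgeR fit. The count called lower was 2 with DESeq2, without a filter and with 1 CPM in 3 libraries, 0 with limma on log2(FPKM + 1), on log2(FPKM + 0.1) and on log2(FPKM + 1) without a filter, and 0 to 2 with a library left out, with or without the length trend. With the length trend removed it was 1, as reported, but that 1 was KDR in place of NRP2.

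Signs of uncalled VEGF genes turned in some settings. VEGFB stood at -0.015 with the length trend removed (-0.037 and -0.079 also without apigenin 1 or 3), and at -0.017 to 0.22 with a library left out. NRP1 stood at 0.006 with the length trend removed (0.021 and 0.033 also without apigenin 1 or 3), and at -0.12 to 0.002 with a library left out. PGF stood at -0.017 with the replicate block, -0.009, -0.024 and -0.009 in the limma settings in the order above, -0.089 with the length trend removed (-0.32 and -0.075 also without apigenin 2 or 3), and -0.17 to 0.19 with a library left out. For each the cause was not tested.

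As reported, 419 of all genes were higher and 641 lower. With DESeq2 658 were higher, and edgeR without a filter gave 865 higher and 1096 lower. Limma gave 194 higher and 185 lower on log2(FPKM + 1), and 109 and 105 on log2(FPKM + 0.1). Limma on log2(FPKM + 1) without a filter gave 123 and 97. With the length trend removed 685 were higher. With a library left out, 103 to 1344 were higher and 157 to 1546 lower, the fewest without DMSO 1 and the most without apigenin 2, with 126 and 184 without apigenin 1, 140 and 179 without DMSO 2 and 124 and 181 without DMSO 3. With the length trend also removed, 966 were higher and 994 lower without apigenin 2, and 637 higher without apigenin 3. The VEGFA share of the ligand pool was lower with apigenin in all 9 of its settings. The difference ran from -0.879 points without apigenin 3 to -3.94 points without apigenin 2. With a filter of 0.5 FPKM in 3 libraries, or with the replicate block, it was -2.65 points, as reported. Neither setting could change it here, since all the summed ligands passed that filter and the block leaves the group means as they are. Same-numbered libraries did not deviate together (correlations of -0.02, -0.02 and -0.05), so the numbers were not taken to pair the cultures. With the replicate block 455 genes were higher and 776 lower, NRP2 kept its call (adjusted p = 0.0078), and ZFP36L1 and PLXNA1 were not called (adjusted p = 0.0547 and 0.053). VEGFD and FLT4, with 0 to 7 reads, were too shallow to test.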

Other observations

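Genes used as markers of vessel and stromal cells were not uniform in this tumour line. The endothelial adhesion genes PECAM1 and ESAM stood at 6.02 ± 0.199 and 28.1 ± 1.12 FPKM with apigenin and at 6.94 ± 0.310 and 25.8 ± 2.37 FPKM with DMSO (SD, n = 3 each), while CDH5, TEK, VWF, ERG and EMCN were under 0.1 FPKM. Neither PECAM1 (-0.20 ± 0.069, edgeR adjusted p = 0.0897) nor ESAM (0.12 ± 0.079, edgeR adjusted p = 0.365) passed the test. LUM, which encodes the matrix proteoglycan lumican and is listed among fibroblast markers, was called higher with apigenin, beside 2.76% of all tested genes. It stood at 10.8 FPKM against 8.63 FPKM with DMSO (0.33, edgeR adjusted p = 0.0313), and was called in 13 of 20 other settings. COL1A2, COL3A1, PDGFRA and PDGFRB, of the same list, were under 0.1 FPKM. The summed level of the 8 fibroblast and mural markers was 11.1 to 11.8 FPKM with apigenin and 8.80 to 9.65 FPKM with DMSO, nearly all of it LUM, and the other 7 were under 1 FPKM with 0 of the 3 tested called. That of the 5 blood cell markers with a row was 50.9 to 55.2 and 51.4 to 55.7 FPKM, nearly all from CD68, with PTPRC and CD3E under 0.1 FPKM. These genes were named after their values were seen.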
